A study of Homo sapiens with 16 samples.

Results

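The hypoxia response of cells depleted of TIP60 was compared with that of control cells carrying the same kind of construct. The comparison is an interaction: the change from normoxia to hypoxia in the TIP60 knockdown line minus the same change in the control line, and it uses 8 of the 16 libraries of the series. All groups are HCT116, a human colorectal carcinoma cell line grown in McCoy's 5A medium with fetal bovine serum. The control groups stably express a non-targeting short hairpin RNA (shNT) and the knockdown groups stably express a short hairpin RNA against TIP60 (shTIP60). Each line was kept either at 21% oxygen (normoxia) or at 1% oxygen for 24 h (hypoxia), giving 4 groups of 2 libraries. The other 8 libraries come from an shCDK8 line and a HIF1A-deleted line under the same 2 oxygen levels. They entered the gene filter, the scaling and the estimate of the spread. The gene sets and comparisons named near the end also use them. The series describes its replicates as independent, but there is a single line for each hairpin, and replication is therefore of cultures, not of knockdowns. The sources used here do not state whether a line is a clone or a pool, and no second hairpin was analysed here.

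TIP60, encoded by KAT5, is a histone acetyltransferase. It works in a large chromatin complex that also exchanges histone variants and takes part in the DNA damage response. Hypoxia-inducible factors (HIFs) are transcription factors whose alpha subunits are marked for destruction by oxygen-dependent prolyl hydroxylases, accumulate when oxygen falls, and bind promoters and enhancers at hypoxia response elements. There they recruit coactivators, including acetyltransferases and Mediator, and switch on genes for glucose uptake, glycolysis, blood vessel growth and acid export. The question put by the design is which of these changes depend on TIP60.

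Polyadenylated RNA was counted by gene. The 8 libraries held 29562567 to 38040687 counts, and tests covered the 15520 of 23669 genes that had enough counts. Levels are given in CPM, counts scaled to a common library size with composition factors, and 3 counts correspond to 0.0716 to 0.104 CPM in these libraries. The libraries of a group are called A and B, which are names only. Epithelial and colon carcinoma markers were above 1 CPM in all 8 libraries for 16 of 25 genes, and their summed level (CPM without composition scaling) was 5111 to 5222 in shNT normoxia, 8233 to 10451 in shNT hypoxia, 8683 to 8760 in shTIP60 normoxia and 11153 to 11282 in shTIP60 hypoxia. The summed level of 16 leukocyte and endothelial markers was 10.7 to 13.1, 40.0 to 41.5, 31.1 to 34.4 and 102 to 118 in the same order, most of it CD68, while PTPRC did not exceed 0.033, PECAM1 did not exceed 0.13 and MS4A1 had no count. The summed level of 18 mesenchymal markers was 94.8 to 106, 151 to 156, 103 to 115 and 159 to 160. The part of these markers in the differences described here was not tested. In bulk RNA, fewer cells expressing a gene and less of its RNA per cell cannot be told apart.

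KAT5 itself, on chromosome 11 (chr11:65479467-65487075, GRCh37, plus strand), stood at 84.8 and 86.7 CPM in shNT normoxia and at 87.5 and 93.6 CPM in shNT hypoxia. It stood at 20.2 and 19.1 CPM in shTIP60 normoxia and at 22.0 and 21.0 CPM in shTIP60 hypoxia. All 4 knockdown libraries lay far below all 4 control libraries. The difference between the lines was -2.12 ± 0.13 (log2, SE) in normoxia and -2.08 ± 0.13 in hypoxia. The depletion of the transcript was of similar size at both oxygen levels, with a response difference of 0.05 ± 0.18 and a 95% interval from -0.34 to 0.43. Here and throughout, the response difference is the log2 change with hypoxia in shTIP60 cells minus that in shNT cells.

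Hypoxia changed the level of 6311 genes in shNT cells (40.7% of those tested) and of 6083 genes in shTIP60 cells (39.2%), at an adjusted p under 0.05 in edgeR's quasi-likelihood test with Benjamini-Hochberg adjustment. Of these, 3208 rose (20.7%) and 3103 fell (20%) in shNT cells, and 3007 rose (19.4%) and 3076 fell (19.8%) in shTIP60 cells. Scaling by library totals alone moved the median response of all genes from 0.00 to -0.20 in shNT cells and from -0.02 to -0.23 in shTIP60 cells, and gave 2116 rises and 4605 falls in shNT cells and 1899 rises and 4859 falls in shTIP60 cells. The response difference is less exposed to that choice, since its median over all genes was -0.01 with composition scaling and -0.02 with library totals.

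The responses of the 2 lines differed for 5 genes, 0.0322% of those tested. IGFBP3, SLC2A3, PAG1 and ZNF608 had the smaller response in the knockdown line (4 genes, 0.0258%), and HMOX1 had the larger one (1 gene, 0.00644%). At an unadjusted p under 0.05 there were 910 genes (5.86%), 440 with a larger (2.84%) and 470 with a smaller response (3.03%). Response differences of all genes were spread about evenly, with 49.1% above 0 and 50.8% below. The small count depends on how the spread was modelled: a fit with the series of library numbers as a replicate block called 72 genes (0.464%), a fit of the 8 libraries alone 51 (0.336%) and DESeq2 64 (0.412%). All 5 genes were among the calls of each of these 3 fits. Together with the main edgeR fit these are the 4 fits referred to below. Settings outside the 4 fits, given near the end, also called genes that none of the 4 called. Leaving out 1 library at a time gave 2 to 10 calls: 10 without shNT hypoxia A, 4 without shNT hypoxia B, 3 without shNT normoxia A, shTIP60 normoxia B or shTIP60 hypoxia A, and 2 without shNT normoxia B, shTIP60 normoxia A or shTIP60 hypoxia B.

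**Figure D1:**
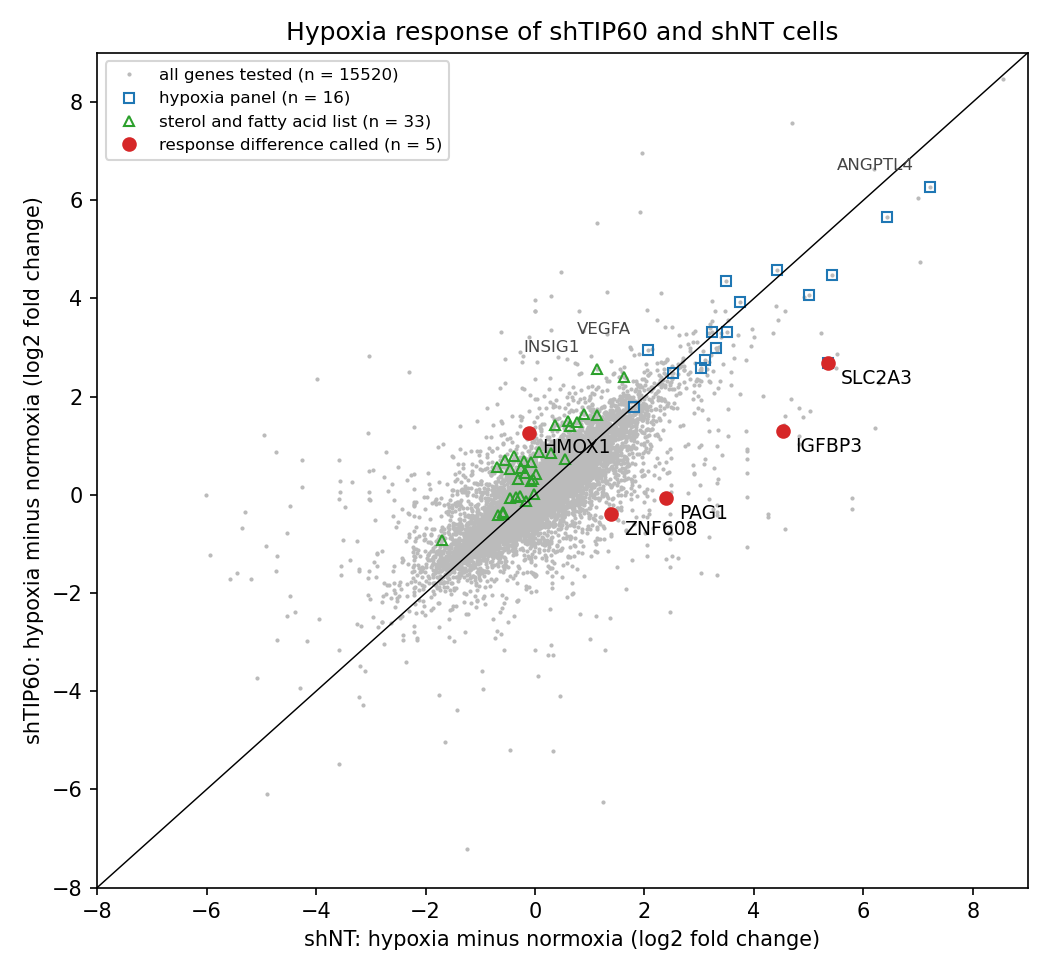
Hypoxia response (log2 fold change, hypoxia minus normoxia) of shNT cells on the x axis and of shTIP60 cells on the y axis for all 15520 genes tested, with the line of equal response. Red points are the 5 genes with a called response difference, of which HMOX1 lies above the line and IGFBP3, SLC2A3, PAG1 and ZNF608 below it, blue squares are the 16 genes of the hypoxia panel, and green triangles are the 33 sterol and fatty acid genes, all above the line.

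IGFBP3, SLC2A3, PAG1 and ZNF608 shared a rise with hypoxia in control cells, but they reached their smaller response in different ways. IGFBP3 encodes a secreted protein that binds insulin-like growth factors, and lies on chromosome 7 (chr7:45951844-45961473, GRCh37, minus strand). In shNT cells IGFBP3 stood at 1.39 and 1.62 CPM in normoxia and at 42.7 and 27.4 CPM in hypoxia. In shTIP60 cells IGFBP3 stood at 590 and 618 CPM in normoxia and at 1452 and 1532 CPM in hypoxia. Every knockdown library, normoxic ones included, was far above every control library, and hypoxia was above normoxia in both lines. The log2 response of IGFBP3 was 4.53 ± 0.29 in shNT cells and 1.30 ± 0.23 in shTIP60 cells, a response difference of -3.23 ± 0.36 (adjusted p = 0.00184, edgeR). On the linear scale the order is the opposite, since the mean level rose by 33.6 CPM in shNT cells and by 888 CPM in shTIP60 cells.

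SLC2A3, which encodes the high-affinity glucose transporter GLUT3, showed the same pattern of a raised starting level. The gene is on chromosome 12 (chr12:8071826-8171603, GRCh37, minus strand). SLC2A3 stood at 6.04 and 6.30 CPM in shNT normoxia, at 241 and 266 CPM in shNT hypoxia, at 219 and 225 CPM in shTIP60 normoxia, and at 1439 and 1431 CPM in shTIP60 hypoxia. Normoxic knockdown libraries were thus just below the hypoxic controls, and hypoxic knockdown libraries were above all others. The response of SLC2A3 was 5.36 ± 0.26 in shNT cells and 2.69 ± 0.22 in shTIP60 cells, a response difference of -2.67 ± 0.31 (adjusted p = 0.00184, edgeR). Between the lines SLC2A3 differed by 5.17 in normoxia and by 2.50 in hypoxia, both higher in shTIP60. SLC2A14, a neighbouring near-identical copy, had a response difference of -2.67 ± 0.50 (adjusted p = 0.0604). Reads of the pair may have been split between them by the counting, so the values of each are uncertain.

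PAG1 encodes a membrane adaptor that restrains Src family kinases, and lies on chromosome 8. Its level was 3.88 and 3.08 CPM in shNT normoxia and 18.9 and 17.8 CPM in shNT hypoxia. In shTIP60 cells PAG1 was at 6.22 and 3.77 CPM in normoxia and at 4.88 and 4.69 CPM in hypoxia. The hypoxic control libraries stood alone above the other 6, and the knockdown groups overlapped each other. PAG1 rose by 2.40 ± 0.24 in shNT cells, whereas its response in shTIP60 cells was -0.06 ± 0.24 and did not pass the test. The response difference of PAG1 was -2.46 ± 0.34 (adjusted p = 0.0108, edgeR).

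ZNF608, a zinc finger gene on chromosome 5 (chr5:123972606-124084500, GRCh37, minus strand), had low counts and is named because it completes the called genes, after its values were seen. It stood at 1.82 and 1.58 CPM in shNT normoxia, at 4.69 and 4.20 CPM in shNT hypoxia, at 4.29 and 4.82 CPM in shTIP60 normoxia and at 3.16 and 3.74 CPM in shTIP60 hypoxia. Only the normoxic controls were set apart, below the other 6 libraries. The response of ZNF608 was 1.39 ± 0.21 in shNT cells and -0.40 ± 0.19 in shTIP60 cells, the latter not past the test, and the response difference was -1.79 ± 0.28 (adjusted p = 0.0298, edgeR).

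HMOX1, on chromosome 22 (chr22:35776354-35790207, GRCh37, plus strand), encodes heme oxygenase, an enzyme that breaks down heme. HMOX1 stood at 18.4 and 19.4 CPM in shNT normoxia and at 18.5 and 16.7 CPM in shNT hypoxia. It stood at 52.1 and 51.4 CPM in shTIP60 normoxia and at 106 and 144 CPM in shTIP60 hypoxia. Control libraries at both oxygen levels overlapped, and the knockdown libraries were higher in normoxia and higher again in hypoxia. The response of HMOX1 was -0.11 ± 0.15 in shNT cells, not past the test, and 1.27 ± 0.14 in shTIP60 cells, and the response difference was 1.37 ± 0.20 (adjusted p = 0.0185, edgeR).

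With 1 of the 8 libraries left out at a time, the response differences of IGFBP3 and SLC2A3 stayed past the threshold in 8 of 8 fits, with adjusted p up to 0.0329. PAG1 passed in 4 of 8 fits, with adjusted p up to 0.173, HMOX1 in 2 of 8, with adjusted p up to 0.211, and ZNF608 in 0 of 8, with adjusted p from 0.0687 to 0.262.

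**Figure D2:**
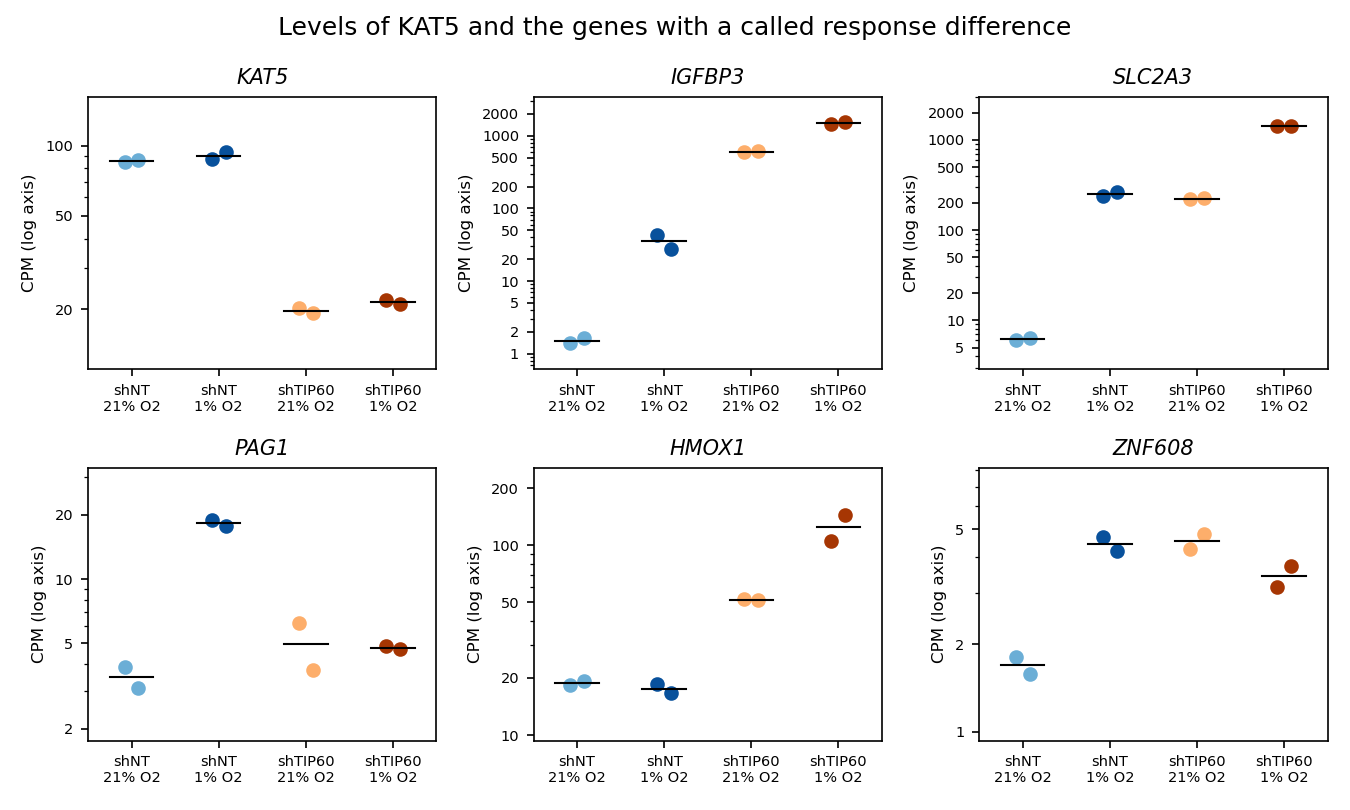
Level (CPM, logarithmic axis) of KAT5 and of the 5 genes with a called response difference in each of the 8 libraries, with a bar at the mean of each group of 2. IGFBP3 and SLC2A3 start far higher in shTIP60 normoxia than in shNT normoxia, PAG1 is high only in shNT hypoxia, and HMOX1 is highest in shTIP60 hypoxia.

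Promoter sequences show whether the core of the hypoxia response element, ACGTG or GCGTG on either strand, stands just before the start of genes described here. The 250 bases upstream of the RefSeq start (GRCh38.p14) are printed 5′ to 3′ on the gene's strand, with each core in capitals, read on the opposite strand as CACGT or CACGC. IGFBP3 (chr7:45921273-45921522, minus strand) and ZNF608 (chr5:124748825-124749074, minus strand) are shown as genes whose response was smaller in the knockdown line. CA9 (chr9:35673678-35673927, plus strand) and ANGPTL4 (chr19:8363905-8364154, plus strand) are shown as HIF targets that rose in both lines.
IGFBP3: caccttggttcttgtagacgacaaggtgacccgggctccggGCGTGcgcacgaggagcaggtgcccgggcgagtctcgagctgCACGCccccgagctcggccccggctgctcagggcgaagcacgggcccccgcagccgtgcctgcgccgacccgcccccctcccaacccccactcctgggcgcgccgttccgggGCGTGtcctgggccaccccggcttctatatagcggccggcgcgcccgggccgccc
ZNF608: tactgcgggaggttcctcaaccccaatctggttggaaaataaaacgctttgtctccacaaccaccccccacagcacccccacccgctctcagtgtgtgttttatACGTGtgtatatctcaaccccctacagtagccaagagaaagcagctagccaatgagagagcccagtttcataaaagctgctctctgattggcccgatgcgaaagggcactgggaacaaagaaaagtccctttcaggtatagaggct
CA9: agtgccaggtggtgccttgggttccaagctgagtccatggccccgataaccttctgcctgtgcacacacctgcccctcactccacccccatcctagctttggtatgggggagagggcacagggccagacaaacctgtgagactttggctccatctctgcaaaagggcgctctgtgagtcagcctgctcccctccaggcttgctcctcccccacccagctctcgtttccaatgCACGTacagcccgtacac
ANGPTL4: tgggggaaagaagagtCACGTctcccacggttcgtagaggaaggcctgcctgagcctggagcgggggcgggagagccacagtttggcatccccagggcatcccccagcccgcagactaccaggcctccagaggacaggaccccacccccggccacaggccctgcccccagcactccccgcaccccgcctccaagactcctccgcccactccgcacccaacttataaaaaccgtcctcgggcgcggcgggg
The IGFBP3 window held 3 matches to GCGTG, and the ZNF608, CA9 and ANGPTL4 windows held 1 match to ACGTG each. Of the 35116 promoters in the table, 43.2% held at least 1 of these cores in the same window. Of the 10571 genes tested here that have an entry, 63.4% held a core in at least 1 of their promoters. The first share is per promoter and the second per gene, so they are unlike measures. A match describes letters and not binding. SLC2A3, HMOX1 and VEGFA have no entry in the table. The promoter of PAG1, also a gene with the smaller response, is not shown here, and whether it holds a core is not reported. The printed windows were picked for display, so they do not show how common a core is among the genes described.

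The hypoxia panel holds 16 established HIF targets. All 16 rose with hypoxia in shNT cells and all 16 rose in shTIP60 cells, where 20.7% and 19.4% of all genes rose. The response difference was called in edgeR for SLC2A3 alone (0.0322% of all genes were called). Of the 16 values 11 were below 0, with a median of -0.25 (all genes -0.01). For the remaining members the interval of the response difference therefore matters more than its call.

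LDHA, the lactate dehydrogenase subunit of glycolysis, stood at 898 and 709 CPM in shNT normoxia, at 2609 and 3003 CPM in shNT hypoxia, at 857 and 734 CPM in shTIP60 normoxia and at 2880 and 2627 CPM in shTIP60 hypoxia. The groups of the 2 lines overlapped at both oxygen levels. The response difference of LDHA was -0.01 ± 0.21, with a 95% interval from -0.46 to 0.43. The glucose transporter SLC2A1, the partner of SLC2A3 in hypoxic glucose uptake, had a response difference of -0.03 ± 0.24, from -0.54 to 0.48, and the glycolytic regulator PFKFB4 had 0.19 ± 0.19, from -0.20 to 0.59. These genes rose strongly in both lines, and the interval of PFKFB4 reached the furthest of the 3 from 0.

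VEGFA and ADM, which encode a vascular growth factor and the vasodilator peptide adrenomedullin, had the largest positive values of the panel. VEGFA stood at 72.6 and 65.1 CPM in shNT normoxia, at 290 and 283 CPM in shNT hypoxia, at 60.1 and 55.0 CPM in shTIP60 normoxia and at 484 and 401 CPM in shTIP60 hypoxia. The hypoxic knockdown libraries were above the hypoxic controls, and the normoxic ones were below the normoxic controls. The response of VEGFA was 2.06 ± 0.15 in shNT cells and 2.94 ± 0.15 in shTIP60 cells, and the response difference was 0.89 ± 0.20 (adjusted p = 0.183, edgeR). With the replicate block VEGFA passed the threshold (adjusted p = 0.0157), as it did in DESeq2 (adjusted p = 0.00771). ADM had a response difference of 0.87 ± 0.25 (adjusted p = 0.387), with 68.2 and 53 CPM in shNT normoxia, 34.4 and 31.5 CPM in shTIP60 normoxia, and overlapping hypoxic groups. The 16 angiogenic and vasoactive factors tested, which include both, had 8 values on each side of 0 and a median of -0.11, with 0 calls in edgeR. At an unadjusted p under 0.05, 3 of the 16 were higher and 3 lower (all genes 2.84% and 3.03%).

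At the other end of the panel were DDIT4, ANGPTL4, CA9 and ANKRD37, none past the threshold. DDIT4 encodes an inhibitor of mTORC1, ANGPTL4 a secreted regulator of lipoprotein lipase, and CA9 a carbonic anhydrase of the cell surface. CA9 stood at 2.19 and 1.00 CPM in shNT normoxia, at 56.0 and 44.2 CPM in shNT hypoxia, at 1.93 and 1.76 CPM in shTIP60 normoxia and at 32.7 and 29.4 CPM in shTIP60 hypoxia. The normoxic groups of CA9 overlapped and the hypoxic groups did not. Its response difference was -0.93 ± 0.37 (adjusted p = 0.70), and the difference between the lines in hypoxia alone was -0.69 (adjusted p = 0.0343, edgeR). ANGPTL4 had a response difference of -0.95 ± 0.28 (adjusted p = 0.424), with 8.56 and 8.41 CPM in shNT normoxia, 15.7 and 17.0 CPM in shTIP60 normoxia, and hypoxic groups that overlapped. DDIT4 likewise had -0.95 ± 0.28 (adjusted p = 0.417), a higher level in shTIP60 normoxia and no called difference in hypoxia. ANKRD37 had -0.78 ± 0.39 and was lower by -1.17 in shTIP60 hypoxia (adjusted p = 0.00195). Between the lines, CA9 and ANKRD37 had a called difference only in hypoxia, and ANGPTL4 and DDIT4 only in normoxia. Since none of these response differences passed, the calls do not show that the line difference changed with oxygen.

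**Figure D3:**
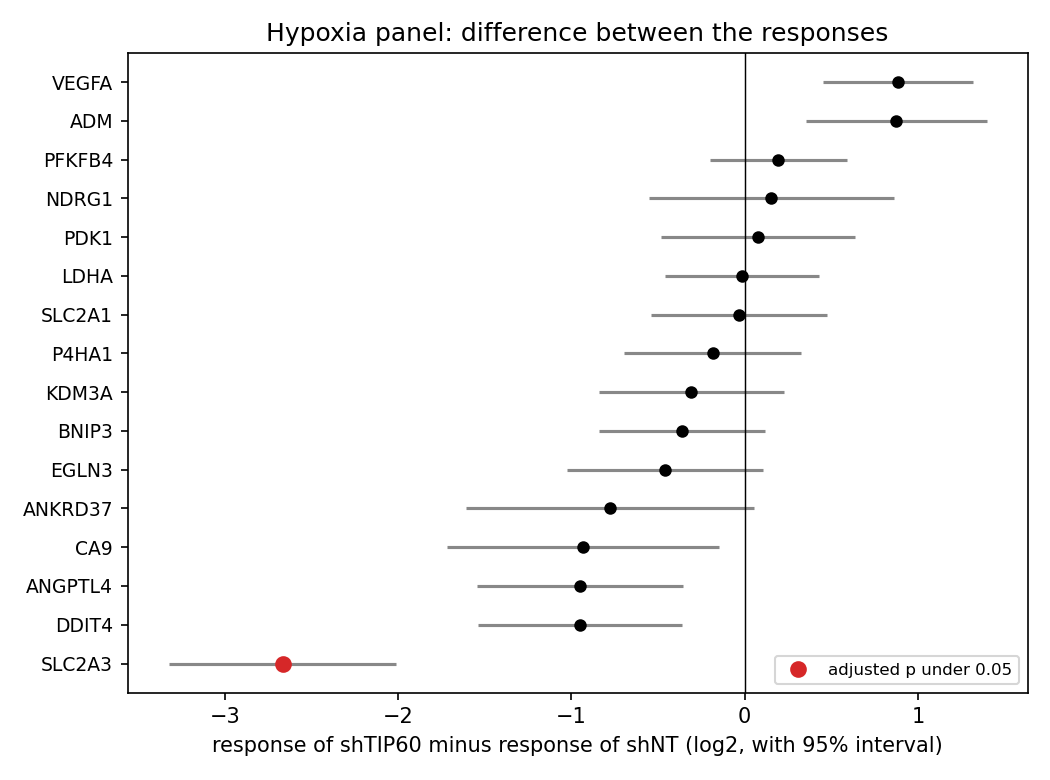
Response difference (log2, shTIP60 minus shNT) of the 16 genes of the hypoxia panel, with 95% intervals from the fit across all genes. SLC2A3, in red at -2.67, is the only member with an adjusted p under 0.05, and VEGFA at 0.89 and ADM at 0.87 stand at the positive end.

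A wider list of 57 core hypoxia genes, which includes the panel, had 55 members tested. All 55 rose in both lines, where 20.7% of all genes rose in shNT and 19.4% in shTIP60 cells. The list was chosen with earlier results of these data known, so this is a description. The median log2 response was 2.51 in shNT cells and 2.58 in shTIP60 cells. The response difference was called in edgeR for 1 member (SLC2A3, lower), with 30 values above 0, 25 below and a median of 0.06. Among 28 glycolysis and lactate export genes tested, SLC2A3 was again the 1 call and the median was 0.04. Of all genes 0.0322% were called. PFKFB2, a bifunctional enzyme that sets the rate of glycolysis, had 0.53 ± 0.19 (adjusted p = 0.651), and the enolase gene ENO2 had 0.45 ± 0.18 (adjusted p = 0.726).

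None of the 20 HIF subunits and regulators tested had a called response difference in any of the 4 fits, and 0 passed an unadjusted p under 0.05 in edgeR. HIF1A, the oxygen-regulated subunit, stood at 107 and 108 CPM in shNT normoxia, 61.2 and 70.5 CPM in shNT hypoxia, 97.6 and 99.3 CPM in shTIP60 normoxia and 50.6 and 51.8 CPM in shTIP60 hypoxia. HIF1A fell with hypoxia in both lines, by 0.71 ± 0.15 and by 0.94 ± 0.15 on the log2 scale, and the response difference was -0.24 ± 0.21. The smallest p belonged to HIF3A, at 0.761 CPM or less in every library (-1.95 ± 1.02, adjusted p = 0.903), followed by CITED2, a competitor of HIF for coactivators (0.40 ± 0.22, adjusted p = 0.91), and the prolyl hydroxylase gene EGLN3 (-0.46 ± 0.27, adjusted p = 0.939).

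Among 18 subunits of the TIP60 complex, KAT5 included, none had a called response difference in any of the 4 fits. In edgeR 1 passed an unadjusted p under 0.05, where 5.86% of all genes did. The median was 0.04, with 11 values above 0. That 1 member was BRD8, a bromodomain subunit, at -0.38 ± 0.16 (adjusted p = 0.771), followed by the scaffold subunit EPC1 at -0.32 ± 0.20 (adjusted p = 0.968) and DMAP1 at 0.26 ± 0.26 (adjusted p = 1). In normoxia 1 subunit was higher and 1 lower in shTIP60 cells (all genes 10.3% and 8.13%), and the same counts held in hypoxia (11.3% and 10.5%), KAT5 being the lower one in both.

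Genes of sterol and fatty acid synthesis leaned furthest to one side. These genes encode the enzymes of the mevalonate and cholesterol pathway and of fatty acid synthesis, together with their SREBP regulators, which are released from the endoplasmic reticulum when sterols run low. All 33 members tested of 34 had a response difference above 0, with a median of 0.64 (all genes -0.01, 49.1% above 0). In 24 of the 33 the 4 possible differences between hypoxic and normoxic libraries of shTIP60 all lay above those of shNT, against 11.6% of all genes. By the adjusted p, 0 of 33 members passed in the edgeR fit, and 18 passed an unadjusted p under 0.05, all higher (2.84% of all genes). With the replicate block 8 passed, all higher (0.258% of all genes), in DESeq2 7 (0.206%) and in the fit of the 8 libraries alone 4 (0.158%). The list was chosen with earlier results of these data known, so its direction is a description.

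FDFT1, squalene synthase, the enzyme at the entry to sterol synthesis, stood at 228 and 206 CPM in shNT normoxia and at 156 and 142 CPM in shNT hypoxia. In shTIP60 cells FDFT1 stood at 100 and 96.4 CPM in normoxia and at 165 and 158 CPM in hypoxia. The normoxic knockdown libraries were the lowest of the 8 and the normoxic controls the highest, and the hypoxic groups of the lines lay next to each other. FDFT1 fell with hypoxia by 0.55 ± 0.15 in shNT cells and rose by 0.72 ± 0.15 in shTIP60 cells, a response difference of 1.26 ± 0.22 (adjusted p = 0.0512, edgeR) that passed with the replicate block (adjusted p = 0.00268).

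HMGCS1, which makes the substrate of HMG-CoA reductase, followed the same course. It stood at 110 and 103 CPM in shNT normoxia, at 64.7 and 67.4 CPM in shNT hypoxia, at 48.1 and 53.2 CPM in shTIP60 normoxia and at 68.2 and 81.8 CPM in shTIP60 hypoxia. HMGCS1 fell in shNT cells and rose in shTIP60 cells, and its response difference was 1.25 ± 0.24 (adjusted p = 0.0722, edgeR; with the block 0.00268). INSIG1, which holds the SREBP complex in the endoplasmic reticulum and is itself an SREBP target, rose in both lines. INSIG1 stood at 90.9 and 65.9 CPM in shNT normoxia, at 162 and 181 CPM in shNT hypoxia, at 47.4 and 38.8 CPM in shTIP60 normoxia and at 264 and 245 CPM in shTIP60 hypoxia. The knockdown libraries were the lowest in normoxia and the highest in hypoxia, and the response difference of INSIG1 was 1.43 ± 0.28 (adjusted p = 0.0824, edgeR; with the block 0.00591). Also past the threshold with the block were IDI1 (0.98), FASN (1.17), FADS1 (0.80) and SREBF2 (0.76).

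The median response of the 33 sterol and fatty acid genes was -0.17 in shNT cells, where 6 rose and 8 fell, and 0.55 in shTIP60 cells, where 19 rose and 2 fell (all genes: 20.7% rose and 20% fell in shNT, 19.4% and 19.8% in shTIP60 cells). The shNT counts are near those shares. In normoxia their median difference between the lines was -0.66, and 21 of 33 were lower in shTIP60 cells and 0 higher. Of all genes 8.13% were lower and 10.3% higher there. In hypoxia the median difference was -0.03, with 1 higher (FADS1) and 1 lower (SREBF2), where 11.3% of all genes were higher and 10.5% lower. The wider response in the knockdown line thus came with a lower normoxic level and a hypoxic level close to that of the controls. SREBF2, the sterol-responsive SREBP gene, stood at 333 and 342 CPM in shNT normoxia, at 563 and 489 CPM in shNT hypoxia, at 128 and 138 CPM in shTIP60 normoxia and at 348 and 354 CPM in shTIP60 hypoxia. Its hypoxic knockdown libraries were just above its normoxic controls. All 3 comparisons use the same shTIP60 and shNT libraries and are not independent of one another.

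**Figure D4:**
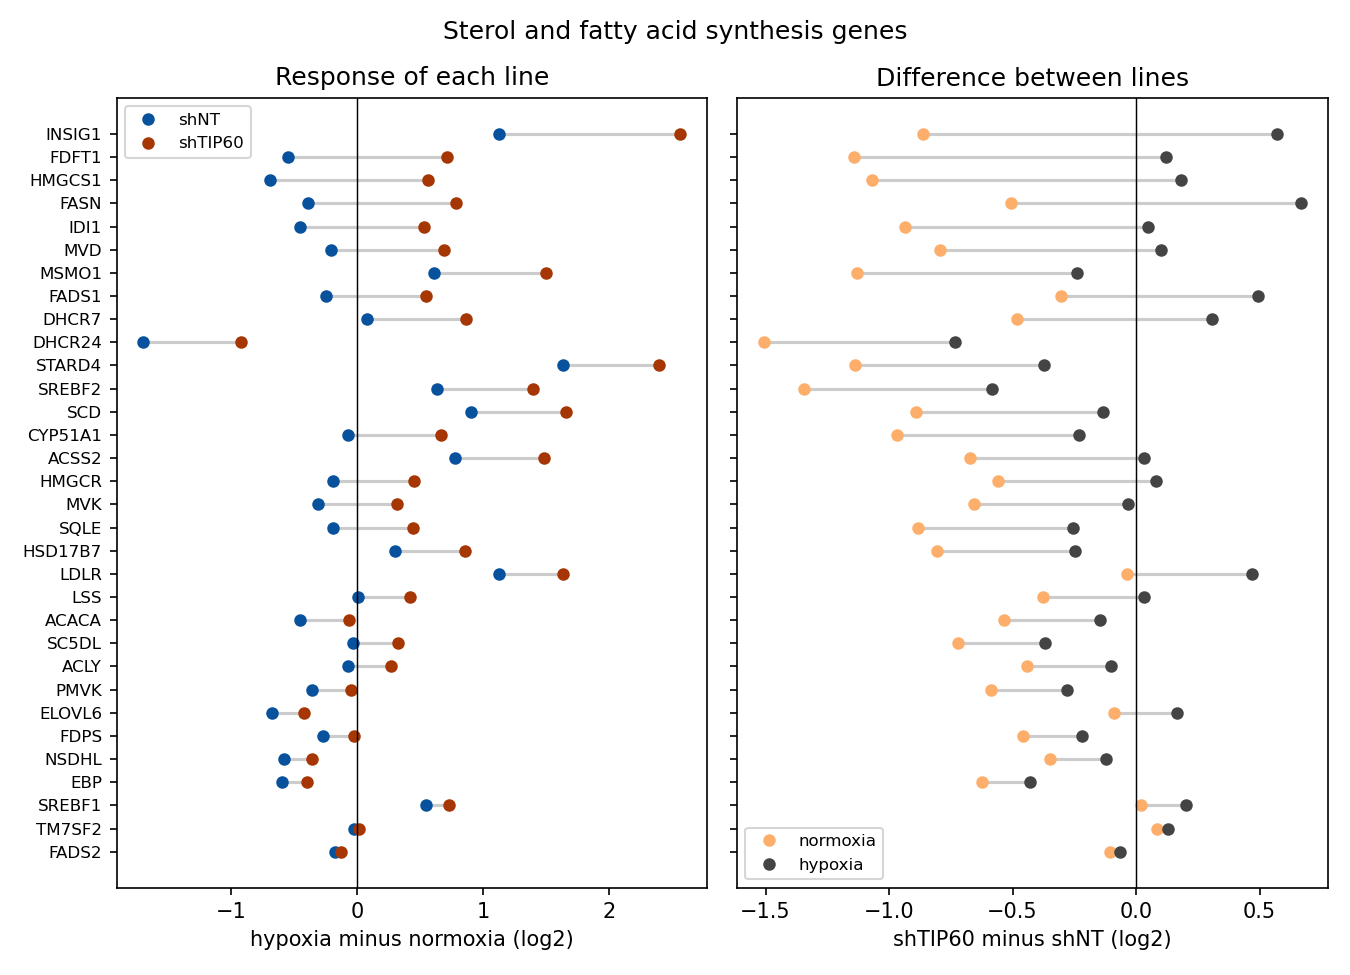
Sterol and fatty acid synthesis genes, 32 of the 33 members tested, ordered by their response difference. The left panel gives the log2 change with hypoxia in shNT (blue) and shTIP60 (red) cells, with red to the right of blue in each gene, and the right panel gives the log2 difference between shTIP60 and shNT cells in normoxia (orange, median of the 33 -0.66) and in hypoxia (dark grey, median of the 33 -0.03).

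Beyond the 5 called genes, 34 were called in all 3 of the fits with the block, with the 8 libraries alone and with DESeq2, 18 with a larger and 16 with a smaller response in shTIP60 cells. They are named from those fits, after their values were seen. None passed in the edgeR fit of 16 libraries. PLIN2, which coats lipid droplets, stood at 23.4 and 23.2 CPM in shNT normoxia, at 47.5 and 48.7 CPM in shNT hypoxia, at 21.7 and 19.2 CPM in shTIP60 normoxia and at 89.5 and 99.8 CPM in shTIP60 hypoxia. Only the hypoxic groups of PLIN2 stood well apart, and its response difference was 1.16 ± 0.20 (adjusted p = 0.0512, edgeR). LPIN1, a phosphatidate phosphatase of triglyceride synthesis, had 1.08 ± 0.20 (adjusted p = 0.0604). The transferrin receptor gene TFRC, which serves iron uptake, fell in shNT cells from 360 and 332 CPM to 153 and 118 CPM. In shTIP60 cells TFRC was at 359 and 372 CPM in normoxia and at 309 and 317 CPM in hypoxia, with a response of -0.22 ± 0.16 that did not pass the test, and its response difference was 1.13 ± 0.22 (adjusted p = 0.0722, edgeR). The urokinase receptor gene PLAUR had 1.26 ± 0.26 (adjusted p = 0.0868).

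Other genes of the 34 had the smaller response. TGFA, a ligand of the epidermal growth factor receptor, stood at 55.5 and 53.3 CPM in shNT normoxia, at 204 and 271 CPM in shNT hypoxia, at 57.5 and 57.3 CPM in shTIP60 normoxia and at 109 and 119 CPM in shTIP60 hypoxia. The normoxic groups of TGFA were close, and the hypoxic controls were above the hypoxic knockdown libraries. The response difference of TGFA was -1.14 ± 0.20 (adjusted p = 0.0512, edgeR). RASSF2 rose in shNT cells from 13.6 and 15.1 CPM to 37.8 and 37 CPM, whereas shTIP60 cells had 12.9 and 13.0 CPM in normoxia and 13.7 and 15.6 CPM in hypoxia. The response difference of RASSF2, which encodes a Ras-associated tumour suppressor, was -1.21 ± 0.21 (adjusted p = 0.0563). The interleukin 6 receptor gene IL6R had -1.14 ± 0.20 (adjusted p = 0.0512), the matrix protein gene THBS1 -1.54 ± 0.28 (adjusted p = 0.0563), the retinoic acid receptor gene RARA -1.05 ± 0.24 (adjusted p = 0.169) and the TGF-beta mediator SMAD3 -0.81 ± 0.20 (adjusted p = 0.243). IL6R, RASSF2 and THBS1 rose in shNT cells and did not pass the test in shTIP60 cells.

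Genes of mitosis leaned the other way from the sterol genes. Of 30 tested, none had a called response difference in any of the 4 fits. In edgeR 2 passed an unadjusted p under 0.05, both lower (3.03% of all genes). Below 0 were 27 values (50.8% of all genes), and the median was -0.30. KIF20A, a kinesin of cytokinesis, stood at 116 and 95.9 CPM in shNT normoxia, at 130 and 165 CPM in shNT hypoxia, at 86.9 and 87.5 CPM in shTIP60 normoxia and at 81.1 and 76.8 CPM in shTIP60 hypoxia, all 4 knockdown libraries below the controls. Its response difference was -0.62 ± 0.21 (adjusted p = 0.529, edgeR). The kinetochore motor gene CENPE had -0.67 ± 0.26 (adjusted p = 0.695) and the spindle checkpoint kinase gene TTK -0.59 ± 0.28 (adjusted p = 0.874). Mitosis genes were lower in shTIP60 cells for 7 of 30 in normoxia and 24 of 30 in hypoxia, where 8.13% and 10.5% of all genes were lower. With hypoxia 3 rose and 6 fell in shNT cells, near or below the shares of all genes (20.7% and 20%), and 2 rose and 17 fell in shTIP60 cells (all genes 19.4% and 19.8%). Of 43 replication genes tested, 27 values were below 0, with a median of -0.06. The smallest p among them belonged to CCNE1, cyclin E, which fell in both lines and had a response difference of 0.99 ± 0.25 (adjusted p = 0.272; with the block 0.0211).

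Protein folding genes had small positive values. Of 23 endoplasmic reticulum chaperones and unfolded protein response genes, 19 were above 0 with a median of 0.21, and of 21 cytosolic heat shock chaperones 17 were above 0 with a median of 0.19. Among all genes 49.1% were above 0. MANF, a secreted factor of endoplasmic reticulum stress, had 0.61 ± 0.17 (adjusted p = 0.401), SDF2L1 0.82 ± 0.30 (adjusted p = 0.658) and the inducible chaperone gene HSPA1B 0.75 ± 0.33 (adjusted p = 0.812), the last with a near-identical copy that makes its count uncertain. No member of either list was called in any of the 4 fits. In edgeR 4 and 2 members passed an unadjusted p under 0.05, all higher (2.84% of all genes). Among 36 ribosome biogenesis factors 30 were above 0, with a median of 0.13 and 0 past an unadjusted p under 0.05 in edgeR. The smallest p among them belonged to NIP7 (0.29 ± 0.17, adjusted p = 0.941).

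Of 27 p53 targets, 19 values were below 0 (50.8% of all genes) with a median of -0.14. In edgeR 5 passed an unadjusted p under 0.05, all lower (3.03% of all genes). None was called in any of the 4 fits. TNFRSF10C, a decoy receptor for the death ligand TRAIL, had -0.82 ± 0.25 (adjusted p = 0.465), the repair gene DDB2 -0.48 ± 0.16 (adjusted p = 0.565) and the antiproliferative gene BTG2 -0.54 ± 0.19 (adjusted p = 0.588). All 3 rose in shNT cells, and DDB2 also rose in shTIP60 cells, by 0.39 ± 0.11.

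Targets of NRF2, the oxidative stress factor, divided. HMOX1 was the 1 call among 22 in edgeR (0.0322% of all genes), 11 values lay above 0 and 11 below, and the median was -0.02. With the replicate block 1 member was called higher and 1 lower (0.258% and 0.206% of all genes). The aldo-keto reductase gene AKR1C1 had -1.85 ± 0.53 (adjusted p = 0.401) at 2.15 CPM or less, and AKR1C3 had -1.45 ± 0.46 (adjusted p = 0.494). These near-identical reductases may share reads, and their values are uncertain. In normoxia 13 of the 22 were higher in shTIP60 cells, where 10.3% of all genes were higher.

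Immediate early and serum response genes also went both ways. Of 33 tested, 14 were above 0 and 19 below, and none was called in the edgeR fit. At an unadjusted p under 0.05, 3 passed higher and 5 lower (all genes 2.84% and 3.03%). FOSL2, a subunit of the AP-1 factor, had -0.89 ± 0.20 (adjusted p = 0.16; with the block 0.0164), the phosphatase gene DUSP2 0.95 ± 0.24 (adjusted p = 0.292; with the block 0.0223) and CYR61 -0.88 ± 0.28 (adjusted p = 0.493). Among 26 targets of ATF4, the amino acid stress factor, CEBPB had 1.26 ± 0.23 (adjusted p = 0.0604; with the block 0.000708). CEBPB stood at 74.3 and 76.6 CPM in shNT normoxia, at 85.8 and 61.1 CPM in shNT hypoxia, at 126 and 119 CPM in shTIP60 normoxia and at 298 and 271 CPM in shTIP60 hypoxia. Its control groups overlapped, and the knockdown groups were above them and apart from each other. ATF3, a stress factor second by p in this list, went the other way with -0.85 ± 0.27 (adjusted p = 0.505; with the block 0.04997), and TRIB3 had 0.62 ± 0.24 (adjusted p = 0.692). The ATF4 list as a whole had a median of 0.12, with 18 values above 0.

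**Figure D5:**
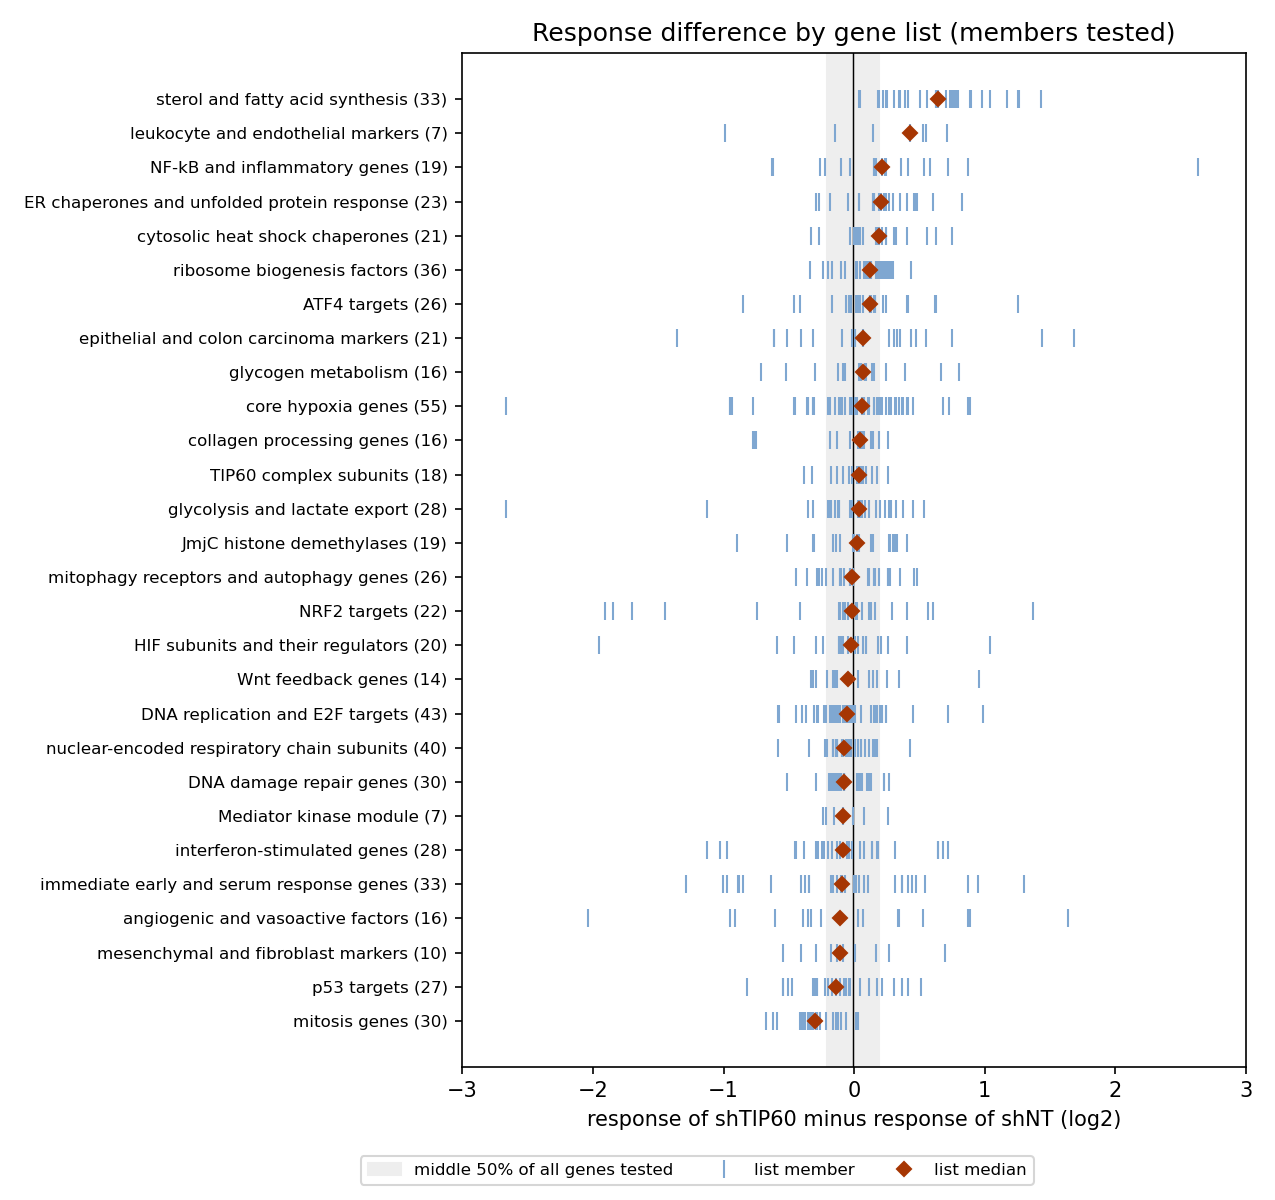
Response difference (log2, shTIP60 minus shNT) of the tested members of 28 gene lists, ordered by list median (diamond), with a tick for each member and a grey band for the middle 50% of all genes tested. The medians of the sterol and fatty acid list (0.64), of the 7 leukocyte and endothelial markers tested (0.43), of NF-kB genes (0.22) and of ER chaperones (0.21) lie at the upper end, and that of mitosis genes (-0.30) at the lower end.

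Gene sets chosen from libraries that do not enter the interaction gave a view of the hypoxia response as a whole. The 2135 genes that rose with hypoxia in shCDK8 cells (13.8%) had a median response difference of -0.02, with 1124 values below 0, and held all 5 called genes, 1 higher and 4 lower. At an unadjusted p under 0.05, 88 of them were higher and 129 lower (all genes 2.84% and 3.03%). The 704 that rose by more than 2-fold in shCDK8 cells had a median of -0.10, with 413 values below 0 (58.7%, all genes 50.8%). Of these 704, 34 were higher and 60 lower at that p, with 0 calls higher and 3 lower in edgeR. The 1713 genes that fell in shCDK8 cells (11.0%) had a median of 0.05 and 0 calls in edgeR, and 8 calls with the block (0.464% of all genes). At an unadjusted p under 0.05, 67 of the 1713 were higher and 34 lower (all genes 2.84% and 3.03%). The 1104 genes whose response was higher in shCDK8 than in HIF1A-deleted cells (7.11%) had a median of -0.01 and 1 call. Median responses of the 2135 genes that rose in shCDK8 cells were 0.87 in shNT and 0.86 in shTIP60 cells.

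The response of shTIP60 cells was also set against those of the other 2 altered lines, in the same fit and with the same shTIP60 libraries, so these comparisons are not independent of the ones above. Against shCDK8 cells DESeq2 called 114 genes higher and 83 lower, and the edgeR fit with no filter 79 higher and 128 lower. Calls were all higher in edgeR with RLE factors (6), library totals (3) and a mean of 5 CPM (12). The main edgeR fit called 6 genes (0.0387%), all with the larger response in shTIP60 cells. The response was larger in CTGF by 1.91 ± 0.31, DUSP1 by 2.64 ± 0.24, FAM89B by 1.45 ± 0.20, GDF15 by 1.19 ± 0.18, HILPDA by 1.86 ± 0.28 and TSC22D3 by 2.04 ± 0.33. The first encodes a matricellular growth factor, DUSP1 a phosphatase of MAP kinases, GDF15 a stress-induced cytokine and HILPDA an inhibitor of lipolysis. Against shNT cells the same genes had response differences of 0.87 ± 0.31 for CTGF, 0.42 ± 0.24 for DUSP1, 0.98 ± 0.20 for FAM89B, 0.30 ± 0.18 for GDF15, 0.73 ± 0.28 for HILPDA and 1.04 ± 0.32 for TSC22D3, none past the threshold in the edgeR fit of 16 libraries. FAM89B passed with the block (adjusted p = 0.00765), in the 8 libraries alone (adjusted p = 0.0418) and in DESeq2 (adjusted p = 0.00183), and TSC22D3 passed in the 8 libraries alone (adjusted p = 0.0454).

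For the 5 called genes, the response of shTIP60 cells minus that of shCDK8 cells was -1.77 ± 0.35 for IGFBP3 (adjusted p = 0.0895), -1.76 ± 0.34 for PAG1 (adjusted p = 0.0895), -1.46 ± 0.32 for SLC2A3 (adjusted p = 0.114), -1.02 ± 0.26 for ZNF608 (adjusted p = 0.167) and 0.71 ± 0.20 for HMOX1 (adjusted p = 0.219, edgeR). None passed, and all had the sign seen against shNT cells. Against HIF1A-deleted cells 2268 genes differed (14.6%). PAG1 at -1.79 ± 0.34 (adjusted p = 0.00285, edgeR) and HMOX1 at 0.67 ± 0.20 (adjusted p = 0.0341) passed, whereas IGFBP3 at 0.01 ± 0.61, SLC2A3 at -0.01 ± 0.29 and ZNF608 at -0.26 ± 0.38 did not. In HIF1A-deleted cells IGFBP3 averaged 0.126 CPM in normoxia and 0.325 CPM in hypoxia, and ZNF608 0.515 and 0.467 CPM. At such levels the responses of IGFBP3 and ZNF608 in that line are poorly resolved. SLC2A3 averaged 22.1 and 143 CPM there. PAG1 averaged 9.89 CPM in shCDK8 hypoxia and 14.2 CPM in HIF1A-deleted hypoxia, against 4.78 CPM in shTIP60 hypoxia. For the 33 sterol and fatty acid genes the median of shTIP60 minus shCDK8 was 0.38 with 25 above 0 (all genes -0.03, with 7271 of 15520 above 0). That of shTIP60 minus HIF1A-deleted cells was -0.78 with 16 called lower, where 6.56% of all genes were lower. The median response of these 33 genes was 0.31 in shCDK8 and 1.52 in HIF1A-deleted cells, against -0.17 in shNT and 0.55 in shTIP60 cells. A median response above that of shNT cells was thus not particular to the shTIP60 line.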

How the data were processed

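RNA of 16 HCT116 libraries, 8 of them in the interaction, was measured as counts per gene. The deposited counts are raw counts that the authors made from poly(A) libraries sequenced on an Ion Torrent Proton, per the labels' protocols. Alignment, counting and testing tools named in the submitters' processing notes are GSNAP, HTSeq (0.5.4p5) and DESeq (1.14.0), with hg19 as the build. Whether counting used strand, and how reads shared by near-identical genes were treated, is not given in the sources used here.

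All 16 libraries entered 1 edgeR fit (edgeR 4.0.16, R 4.3.3, robust quasi-likelihood, TMM factors, 1 coefficient per group, 8 residual degrees of freedom). Genes were filtered with filterByExpr at a minimum count of 10 and a minimum total of 15, and p-values were adjusted by Benjamini-Hochberg over 15520 genes, with calls at 0.05. Library totals with their TMM factors scaled the counts, and p-values weigh each contrast against the spread between these libraries within groups. The code was tested on simulated data.

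Genes named are KAT5, the hypoxia panel, called genes of at least 5 CPM in their highest group whose library differences did not overlap, and up to 3 members with the smallest p of each list described. A filter on gene symbols passed over IGFBP3, which meets this rule and is described here as a called gene. Genes called in other fits or in the comparison with shCDK8 cells are described as well. The members of the comparison and all lists were chosen with earlier results of these data known. Columns carry library numbers that fall into 2 series, and deviations of A and B correlated between groups (r from 0.161 to 0.676 over 28 pairs of groups, 10077 genes above 10 CPM), so the series served as a replicate block in an added fit. Alternatives were DESeq2 1.42.0, RLE factors, library totals, other filters, glmTreat at 1.5-fold, the 8 libraries alone and leaving out each library. Gene positions are from GENCODE on GRCh37. RefSeq promoters (GRCh38.p14) matched 10571 of 15520 genes, 68.1%, too few to compare motif shares between sets. One member of the sterol and fatty acid list is counted with its list and is not reported here by itself.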

Additional observations from a re-analysis of the deposited data

Results flagged for a closer look

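Responses to hypoxia differed between shTIP60 and shNT cells by the test of the difference itself for 5 genes, with log2 values of -3.23 for IGFBP3, -2.67 for SLC2A3, -2.46 for PAG1, -1.79 for ZNF608 and 1.37 for HMOX1. Between shTIP60 and shCDK8 cells the same kind of test separated 6 genes, with 1.91 for CTGF, 2.64 for DUSP1, 1.45 for FAM89B, 1.19 for GDF15, 1.86 for HILPDA and 2.04 for TSC22D3. Both sets of values use the same shTIP60 libraries.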

How the results depend on the processing

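The count of genes with a called response difference (5) depended on the model: it was 106 with no filter beyond 1 count, 10 with a mean of 5 CPM, 51 in the 8 libraries alone, 3 by glmTreat against 1.5-fold and 64 in DESeq2, against 5 with RLE factors and 6 with library totals. The column names carry no replicate number of the labels, so pairing was tried on the series of library numbers. This replicate block was chosen after seeing the data, and it called 72 genes in the 16 libraries and 229 in the 8. The normoxic difference between the lines (2857) had 4287 calls with the block, 4101 in the 8 libraries and 5222 with both, and the hypoxic difference (3383) had 4988, 4690 and 5853. List members called, counted once each, numbered 2, and 26 with no filter, 10 in the 8 libraries, 1 by glmTreat, 17 with the block, 45 with the block in the 8 libraries and 13 in DESeq2. Against shCDK8 cells the 6 calls became 3 with library totals, 207 with no filter (79 higher, 128 lower), 12 with a mean of 5 CPM and 197 in DESeq2 (114 higher, 83 lower).

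Leaving out 1 library at a time gave 2 to 10 calls for the response difference, 1 to 3 list members, 4104 to 6004 calls for the shNT response, 3786 to 6190 for the shTIP60 response, 1368 to 2952 for the normoxic and 1709 to 3192 for the hypoxic difference. The largest drops came without shNT normoxia A for the shNT response (4104), without shTIP60 normoxia A (3786) or shTIP60 hypoxia A (3877) for the shTIP60 response, without any of the 4 normoxic libraries for the normoxic difference (1368 to 1668), and without shNT hypoxia B (1757), shTIP60 hypoxia A (1709) or shTIP60 hypoxia B (1796) for the hypoxic difference. Over the 93 genes of the naming rule, 1487 values under an alternative kept direction and side of the threshold, 59 passed only there and 11 no longer passed. For 14 values the sign changed without a call on either side, and no called value reversed. This tally leaves out IGFBP3, ZNF608 and other genes described here, such as PLIN2, TGFA, TFRC, SREBF2 and CTGF. With 2 libraries per group, differences of the lowest genes, such as HIF3A, are poorly resolved at this depth.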

Other observations

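Other gene groups differed between the lines at a fixed oxygen level more than in their response. Of 28 interferon-stimulated genes tested, 15 were higher in shTIP60 normoxia and 14 in shTIP60 hypoxia, with median differences of 0.94 and 0.68, where 10.3% and 11.3% of all genes were higher. Their median response difference was -0.08, with 17 values below 0 and none called in any of the 4 fits, and the smallest p belonged to the interferon regulatory factor gene IRF7 (-0.98 ± 0.36, adjusted p = 0.658, edgeR). Collagen processing genes had 5 of 16 higher in shTIP60 cells at each oxygen level, a median response difference of 0.04 and the smallest p in the lysyl oxidase gene LOXL4 (-0.75 ± 0.27, adjusted p = 0.65).

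Groups tied to metabolism and chromatin stayed near the middle of all genes. Nuclear-encoded respiratory chain subunits had 28 of 40 values below 0 and a median of -0.07, glycogen genes a median of 0.07 over 16, mitophagy and autophagy genes -0.02 over 26 and JmjC histone demethylases 0.02 over 19. Smallest p-values in these groups belonged to CYCS (0.43 ± 0.21), PPP1R3E (0.80 ± 0.25), ATG16L1 (0.48 ± 0.19) and MINA (0.41 ± 0.17), none past the threshold. Of 14 Wnt feedback genes 7 lay on each side of 0, and RNF43, a ubiquitin ligase that removes Wnt receptors, had 0.96 ± 0.31 (adjusted p = 0.505). Of 19 NF-kB and inflammatory genes 13 lay above 0, with a median of 0.22 and the smallest p in NFKBIA, the NF-kB inhibitor gene (0.72 ± 0.23, adjusted p = 0.512), and the 7 Mediator kinase module genes had a median of -0.08. Of 30 DNA damage repair genes 17 lay below 0, with a median of -0.08 and the smallest p in BRCA2 (-0.51 ± 0.23, adjusted p = 0.827). No member of these 8 groups was called in any of the 4 fits.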
